A study of Mus musculus with 24 samples.

Results

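Glycolysis and the response to low oxygen are covered here by 42 genes, found by their symbols in the raw count table of activated mouse T cells, out of 55401 genes in that table. They comprise 2 glucose transporters, 14 glycolytic enzymes, 4 genes of lactate and pyruvate handling, 2 regulators of phosphofructokinase, Hif1a with 3 of the hydroxylases that mark its protein for destruction, and 16 targets of hypoxia-inducible factor (HIF). All 42 were present in the table. The cells came from the spleens of C57BL/6 mice aged 12 weeks, sorted as CD4+ or CD8+ and then activated in culture for 2 days with antibodies to CD3 and CD28. Each of 6 groups held 4 libraries. The wild-type mice carried 2 floxed Pou2af1 alleles and no CD4.Cre, although their titles read Pou2af1+/+. Heterozygous mice were CD4.Cre+ with 1 floxed allele, and knockout mice were CD4.Cre+ with 2, so that Cre was present only in the heterozygous and knockout groups. CD4.Cre is driven by the Cd4 promoter, which is active in the thymus before CD4 and CD8 cells part. Each library carries a number from 1 to 4 within its group. Libraries numbered 1-2 are set beside those numbered 3-4 in what follows. The labels do not call these numbers a batch, nor say whether libraries came from separate animals. P-values measure the spread between libraries, which may be technical in part, although each group held libraries of both sexes.

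Activated T cells shift towards aerobic glycolysis: glucose enters through Slc2a1 and Slc2a3, is split to pyruvate by the glycolytic enzymes, and much of the pyruvate is reduced to lactate by Ldha and exported by Slc16a1 and Slc16a3. HIF-1α, the product of Hif1a, is made continuously and destroyed when the oxygen-dependent hydroxylases encoded by Egln1, Egln2 and Egln3 act on it. When oxygen is scarce, and also after T cell receptor signalling, the protein accumulates, pairs with ARNT and binds the core letters ACGTG or GCGTG near target genes. Its targets include nearly every step of glycolysis and also Egln3, Bnip3 and Pdk1, which feed back on the pathway, remove mitochondria or hold pyruvate out of them.

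The sequences just before the start sites show these core letters beside the genes on which the results turn. Bnip3, Egln3, Slc16a3 and P4ha2 were among the genes that differed most between the library numbers, and Slc16a1, the other lactate exporter, is shown beside Slc16a3 because it was not called in either cell type. Each run is the 250 bases upstream of a RefSeq start on GRCm38.p6, read 5′ to 3′ on the gene's own strand, with ACGTG and GCGTG, on either strand, in capitals. The windows lie at chr7:138909507-138909756 on the minus strand for Bnip3, chr12:54203875-54204124 on the minus strand for Egln3, chr11:120948817-120949066 on the plus strand for Slc16a3, chr11:54100674-54100923 on the plus strand for P4ha2 and chr3:104638414-104638663 on the plus strand for Slc16a1.
Bnip3: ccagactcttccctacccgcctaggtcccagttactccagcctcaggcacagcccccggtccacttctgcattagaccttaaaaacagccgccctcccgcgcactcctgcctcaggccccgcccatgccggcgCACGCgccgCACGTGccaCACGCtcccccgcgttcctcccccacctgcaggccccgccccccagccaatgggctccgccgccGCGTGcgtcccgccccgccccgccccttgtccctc
Egln3: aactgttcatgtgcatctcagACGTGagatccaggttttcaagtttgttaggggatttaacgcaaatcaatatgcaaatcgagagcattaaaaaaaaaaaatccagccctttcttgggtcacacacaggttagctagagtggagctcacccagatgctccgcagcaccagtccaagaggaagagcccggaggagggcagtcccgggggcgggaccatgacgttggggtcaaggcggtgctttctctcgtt
Slc16a3: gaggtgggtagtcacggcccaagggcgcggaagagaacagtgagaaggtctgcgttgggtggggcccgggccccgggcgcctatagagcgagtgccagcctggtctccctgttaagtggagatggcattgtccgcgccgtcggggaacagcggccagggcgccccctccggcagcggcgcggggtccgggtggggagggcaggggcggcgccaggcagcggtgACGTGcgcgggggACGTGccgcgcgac
P4ha2: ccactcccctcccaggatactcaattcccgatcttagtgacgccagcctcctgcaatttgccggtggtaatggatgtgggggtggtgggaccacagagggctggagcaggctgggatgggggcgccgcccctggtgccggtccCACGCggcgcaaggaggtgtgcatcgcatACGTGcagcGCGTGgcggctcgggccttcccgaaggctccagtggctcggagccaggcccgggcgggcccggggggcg
Slc16a1: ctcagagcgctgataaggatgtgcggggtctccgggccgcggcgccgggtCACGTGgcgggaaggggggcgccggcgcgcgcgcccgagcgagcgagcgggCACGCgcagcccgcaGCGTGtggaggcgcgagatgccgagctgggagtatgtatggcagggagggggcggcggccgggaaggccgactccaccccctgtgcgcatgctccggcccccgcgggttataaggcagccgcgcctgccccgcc
Counting each strand's match, with overlapping matches counted separately, the runs hold 5 matches for Bnip3, 1 for Egln3, 2 for Slc16a3, 3 for P4ha2 and 4 for Slc16a1. In windows of 300 bases that also take in the 50 bases after the start, ACGTG or GCGTG was sought on either strand. It stood in at least 1 window of 35 of the 38 members with a window (92.1%), against 46.7% of 27025 genes. Some genes have several windows: members had 61 in all, and all genes 32851. Counted by window, the shares were 80.3% and 43.8%. The longer palindrome CACGTG, whose 6 letters contain ACGTG and which MYC and its partners also bind, stood in 8 of the 38 (21.1%), against 8.09% of genes. By window its shares were 13.1% and 7.15%. The members' windows had a median G and C content of 64.3% against 52.7% over all windows, and the part of base composition in these shares was not tested. Slc2a3, Bnip3l, Ndrg1 and Bhlhe40 had no window in the table. The letters stood both before genes that differed between library numbers and before Slc16a1, which did not pass the test.

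The libraries held 11944120 to 21760793 counts assigned to genes, and 3 counts, the smallest number taken as detected, corresponded to 0.138 to 0.251 CPM, the counts per megacount of the library. Pou2af1, the targeted gene, followed the labels, at 38.4 ± 10.95, 20.2 ± 4.29 and 2.20 ± 1.11 CPM (SD, n = 4) in CD4 wild-type, heterozygous and knockout cells and 27.7 ± 6.18, 15.5 ± 1.40 and 1.71 ± 0.751 CPM in CD8 cells. The sorts followed their labels too: Cd4 was at 445 to 542 CPM in CD4 and 0.212 to 1.74 CPM in CD8 libraries, and Cd8a at 0 to 0.668 and 640 to 767 CPM. Of 8 B cell markers, summed levels ranged from 7.62 to 49.96 CPM per library. Neutrophil markers S100a8 and Camp were at 0 in all 24 libraries, and the 7 neutrophil markers summed to at most 0.249 CPM. Of 11 macrophage and dendritic cell markers, Lyz2 reached at most 0.496 CPM and Itgax 3.25 CPM. Cd68, on the same list, was at 0.998 to 2.02 CPM in CD4 and 2.10 to 3.75 CPM in CD8 libraries. Xist and Ddx3y read heterozygous libraries 1 and 2 of each cell type as female and 3 and 4 as male, while the wild-type and knockout groups each held 1 female and 3 male libraries. Libraries of the same genotype and number were read as the same sex in CD4 and CD8 cells. In bulk RNA, fewer cells of a type and less RNA per cell cannot be told apart.

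Levels per kilobase of merged exons put the genes on one scale. Averaged over the 24 libraries, Ldha, which makes lactate from pyruvate, stood highest at 532.6 CPM per kb, followed by the aldolase Aldoa at 290.9, the pyruvate kinase Pkm at 247.2 and the triose isomerase Tpi1 at 206.7 CPM per kb. Hif1a itself came next at 111.8 CPM per kb. The brain-type aldolase Aldoc at 2.26, the phosphofructokinase regulator Pfkfb4 at 0.762, the collagen prolyl hydroxylase P4ha2 at 0.313 and the secreted peptide gene Adm at 0.307 CPM per kb formed the bottom of the order. Gapdh, Pgk1, Pgam1, Eno1, Ldha and Tpi1 have near-identical processed copies in the mouse genome, and reads that fit several places were counted apart from genes, so the levels of these genes are uncertain. The exons of 18 members overlap those of another gene, and whether counting used strand is not given in the sources used here.

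Between libraries 1-2 and libraries 3-4 nearly the whole pathway differed. In CD4 cells 36 of the 42 members were lower in libraries 1-2 and 1, Bhlhe40, was higher (edgeR quasi-likelihood test with genotype in the model, adjusted p under 0.05), where 34.8% of the 12719 genes tested were called, 17.9% lower and 16.9% higher. In CD8 cells 32 of 41 tested members were lower and none higher, where 17.8% of 12612 genes were called, 8.98% lower and 8.86% higher. Adm was too low to be tested in CD8 cells. The members' median log2 difference was -0.61 in CD4 and -0.70 in CD8 cells, against 0.003 and 0.006 over all genes tested. The 32 members called in CD8 cells were all called lower in CD4 cells as well. In CD4 cells 32 members had every library of 1-2 below every library of 3-4, where 8.66% of genes did, and in CD8 cells 27 members did, where 5.49% of genes did. For 25 members this held in both cell types, and the share of all genes for which it held in both is not given here. The split by number was chosen with earlier results of these data known, so these p-values describe a separation and are not an independent test of it.

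**Figure D1:**
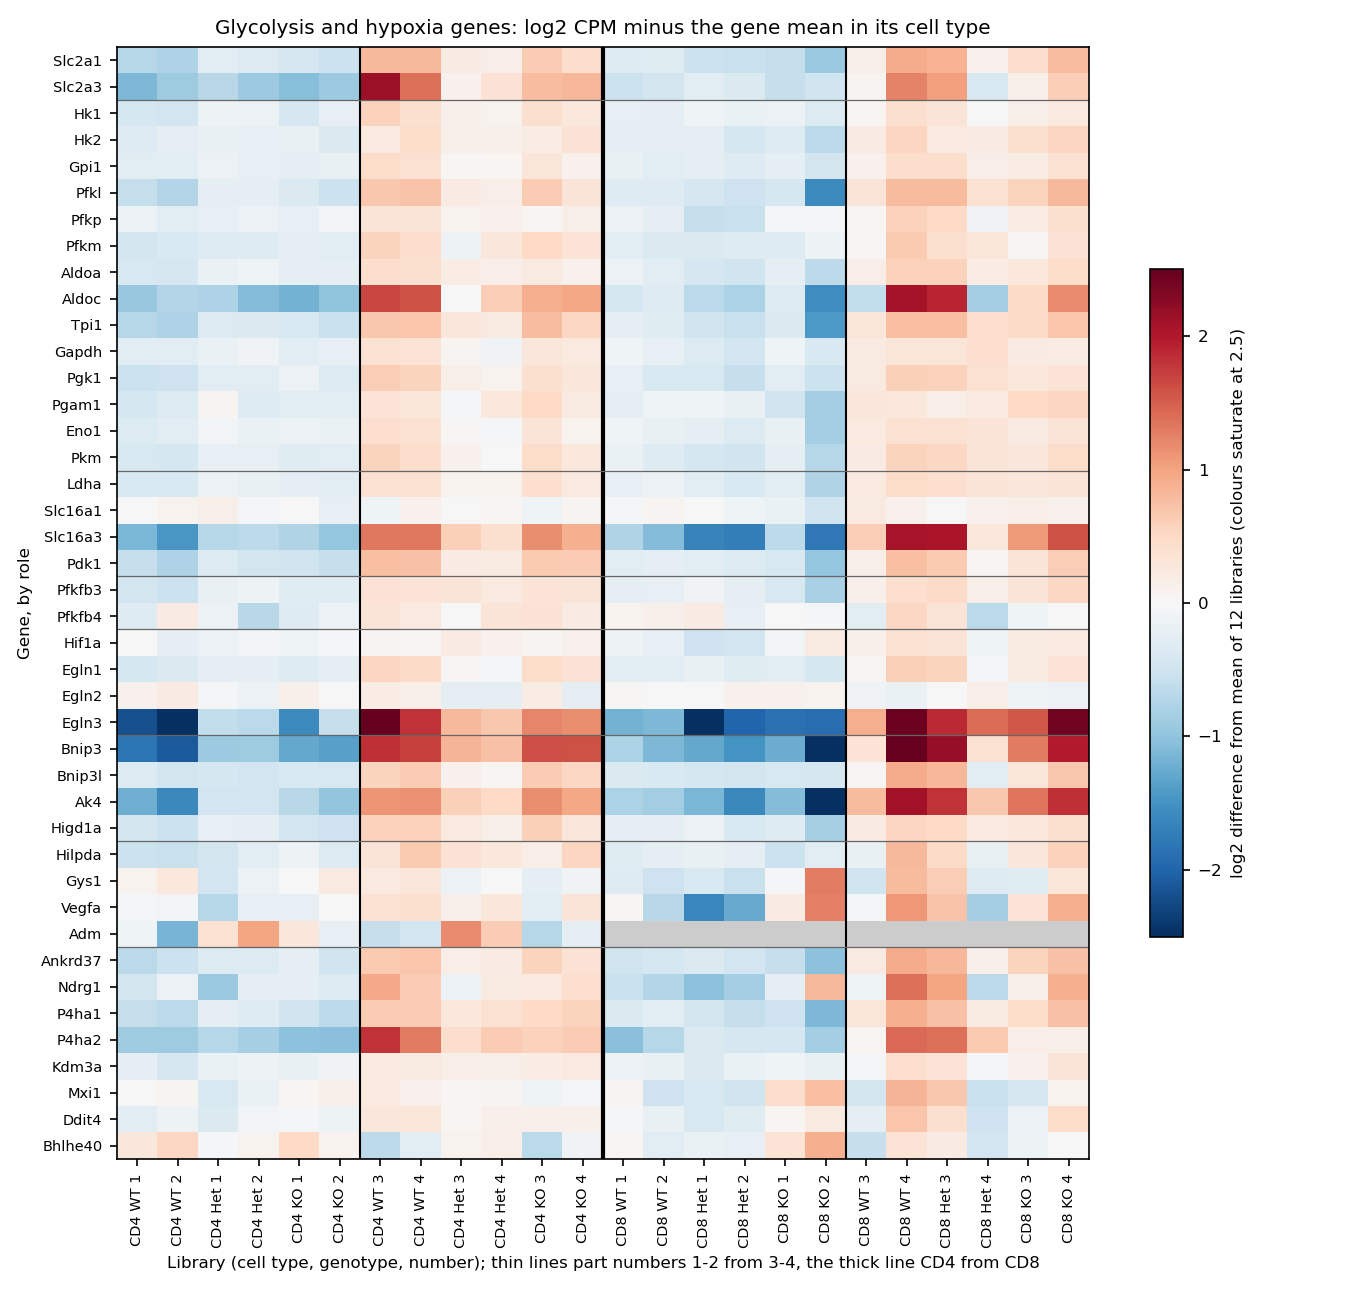
Heat map of log2 CPM of the 42 genes (rows, by role) in the 24 libraries (columns), each value minus the gene's mean over the 12 libraries of its cell type, with red above and blue below the mean; Adm in CD8 cells is left grey because its counts were at the floor. Libraries 1-2 are mostly blue and libraries 3-4 mostly red in both cell types, with CD8 wild-type library 4 the highest for 32 members and CD8 knockout library 2 the lowest for 22.

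Of the mitochondrial and mitophagy targets, 4 of 4 fell in libraries 1-2 relative to 3-4 in both cell types, with medians of -1.32 in CD4 and -1.85 in CD8 cells. Bnip3, a mitophagy receptor on chromosome 7 (138890836 to 138909519, GRCm38), was at 8.55, 7.05, 108.2 and 100.6 CPM in CD4 wild-type libraries 1 to 4, at 16.2, 16.4, 54.7 and 50.8 CPM in heterozygous libraries, and at 12.5, 11.8, 93.8 and 92.7 CPM in knockout libraries. Libraries 1-2 were low and 3-4 high in each genotype, with no overlap. In CD8 cells the values were 9.52, 7.53, 21.1 and 96.3 CPM in wild-type, 6.77, 5.80, 76.2 and 21.8 CPM in heterozygous, and 6.94, 2.30, 41.1 and 66.2 CPM in knockout libraries. Wild-type library 3 and heterozygous library 4 lay between the rest. The difference was -2.75 ± 0.24 on the log2 scale (SE, 6 libraries against 6, edgeR adjusted p = 1.85e-05), a 6.71-fold lower level, in CD4 cells and -3.06 ± 0.42 (edgeR adjusted p = 0.00073), 8.36-fold lower, in CD8 cells. Ak4, an adenylate kinase of the mitochondrial matrix, ran from 17.8 to 39.4 CPM (median 30.8) in CD4 libraries 1-2 and from 77.9 to 122.7 CPM (median 113) in 3-4, and from 2.30 to 11.6 CPM (median 9.20) against 32.2 to 86.5 CPM (median 60.5) in CD8 cells. Its log2 differences were -1.80 ± 0.19 and -2.81 ± 0.33 (SE; edgeR adjusted p = 3.62e-05 and 0.00028). Bnip3l, a second mitophagy receptor, and Higd1a, which binds respiratory complexes, changed less, by -0.83 and -0.81 in CD4 cells and -0.88 and -0.70 in CD8 cells.

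Of HIF-1α and its hydroxylases, 3 of 4 fell in both cell types, and Egln2 did not pass in either. Egln3, a hydroxylase gene that HIF itself induces (chromosome 12, 54178981 to 54203860), was at 7.40, 5.29, 220.9 and 121 CPM in CD4 wild-type libraries 1 to 4, at 22.4, 21.7, 61.3 and 55.1 CPM in heterozygous and at 11.4, 23.2, 81.0 and 78.2 CPM in knockout libraries. The lowest and the highest values both came from wild-type cells. In CD8 cells it was at 6.27, 6.50, 27.0 and 79.3 CPM in wild-type, 2.31, 3.53, 52.4 and 38.2 CPM in heterozygous, and 3.86, 3.76, 42.6 and 77.5 CPM in knockout libraries, again without overlap between the numbers. Egln3 was 6.25-fold lower in libraries 1-2 in CD4 cells (log2 -2.64 ± 0.43, SE; edgeR adjusted p = 0.000597) and 12.3-fold lower in CD8 cells (log2 -3.62 ± 0.30, SE; edgeR adjusted p = 2.61e-05). Egln1, the main oxygen-sensing hydroxylase, fell by 0.60 and 0.58. Hif1a changed by less than Egln3 and Egln1, by -0.18 ± 0.05 in CD4 and -0.39 ± 0.10 in CD8 cells (SE; edgeR adjusted p = 0.00873 and 0.0163). Its CD8 libraries overlapped, at 319 to 537.7 CPM (median 409) in 1-2 and 425 to 600.5 CPM (median 541) in 3-4.

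**Figure D2:**
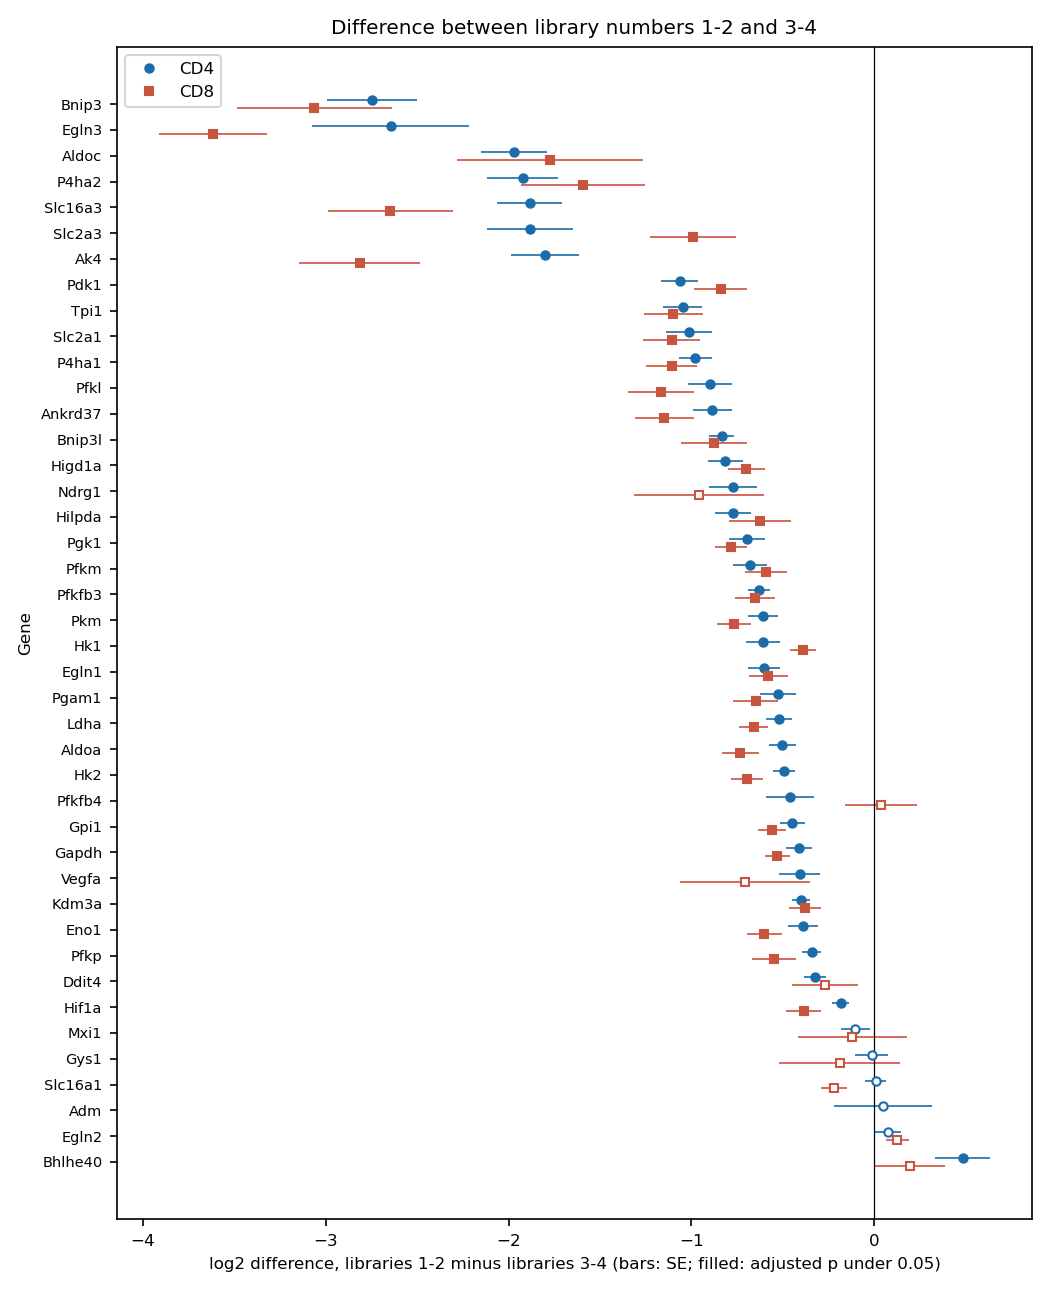
Log2 difference of libraries 1-2 minus libraries 3-4 for each gene (points, with SE bars) in CD4 (circles) and CD8 cells (squares), filled where the adjusted p was under 0.05. All but 4 CD4 and 3 CD8 points lie below 0, with Bnip3 lowest in CD4 cells at -2.75, Egln3 lowest in CD8 cells at -3.62, and Bhlhe40 highest in both at 0.48 and 0.20.

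Both glucose transporters fell in both cell types. Slc2a1 was at 59.5 to 83.6 CPM (median 72.5) in CD4 libraries 1-2 and 113.9 to 177 CPM (median 148) in 3-4, and at 44.1 to 68.1 CPM (median 58.0) against 91.2 to 161 CPM (median 129) in CD8 cells. The log2 differences of -1.01 ± 0.13 and -1.11 ± 0.16 (SE; edgeR adjusted p = 0.000122 and 0.00081) were close to 2.02-fold and 2.15-fold. Slc2a3, a transporter of high affinity, was at 27.1, 32.0, 260.7 and 154.8 CPM in CD4 wild-type, 36.6, 31.5, 64.4 and 76.9 CPM in heterozygous, and 28.4, 31.8, 101 and 106 CPM in knockout libraries 1 to 4. The CD4 sets did not overlap, while the CD8 sets did, at 62.3 to 76.5 CPM (median 66.2) and 70.2 to 219 CPM (median 122). Its log2 difference was -1.88 ± 0.24 in CD4 and -0.99 ± 0.24 in CD8 cells (SE; edgeR adjusted p = 0.000114 and 0.0136). No member passed the test that CD4 and CD8 cells differed in the size of this shift, where 5.86% of 13288 genes did, and 4 members had an unadjusted p under 0.05, where 22.7% of genes did. The members of lowest p there were Ak4, at -1.01 ± 0.39, and Slc2a3, at 0.89 ± 0.36 (SE; edgeR adjusted p = 0.124 and 0.139).

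All 14 glycolytic enzymes fell in both cell types, with medians of -0.57 in CD4 and -0.67 in CD8 cells. Aldoc had the largest difference, at -1.97 ± 0.18 and -1.77 ± 0.51 (SE; edgeR adjusted p = 2.07e-05 and 0.0315), on a level of 3.47 to 4.80 CPM (median 4.03) in CD4 libraries 1-2 and 7.99 to 26.2 CPM (median 15.6) in 3-4. In CD8 cells Aldoc stood at 0.905 to 2.30 CPM in libraries 1-2, at 12.7 CPM in wild-type library 4, at 11.3 CPM in heterozygous library 3, and at 1.85 and 1.54 CPM in wild-type library 3 and heterozygous library 4, so the sets overlapped. Tpi1 ran from 330 to 449.6 CPM (median 407) against 666 to 972 CPM (median 856) in CD4 cells and fell by 1.05 on the log2 scale. The liver-type phosphofructokinase Pfkl fell by 0.90 and 1.17, the phosphoglycerate kinase Pgk1 by 0.70 and 0.78, and Pkm by 0.61 and 0.77. The smallest shifts were those of the platelet-type phosphofructokinase Pfkp in CD4 cells, -0.34, and the hexokinase Hk1 in CD8 cells, -0.39. The other hexokinase, Hk2, fell by 0.49 and 0.70, Gpi1 by 0.45 and 0.56, and Pfkm by 0.68 and 0.59. Aldoa fell by 0.50 and 0.73, Gapdh by 0.41 and 0.53, Pgam1 by 0.53 and 0.65, and the enolase Eno1 by 0.39 and 0.60.

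The 2 lactate exporters differed from each other. Slc16a3, whose transporter exports lactate from highly glycolytic cells (chromosome 11, 120948480 to 120960868), was at 34.4, 27.7, 190.3 and 190.1 CPM in CD4 wild-type libraries 1 to 4, at 46.7, 48.4, 115.6 and 101.1 CPM in heterozygous, and at 45.3, 39.3, 171.5 and 141 CPM in knockout libraries. In CD8 cells it was at 20.9, 16.6, 54.1 and 146 CPM, at 10.9, 10.5, 145.3 and 42.4 CPM, and at 22.3, 10.1, 74.0 and 106.5 CPM. Every library 1-2 lay below every library 3-4 in both cell types, by 3.69-fold (log2 -1.88 ± 0.18, SE; edgeR adjusted p = 2.34e-05) and 6.26-fold (log2 -2.65 ± 0.34, SE; edgeR adjusted p = 0.000517). Slc16a1 was at 324 to 414 CPM (median 378) in CD4 libraries 1-2 and 346 to 405 CPM (median 378) in 3-4, a log2 difference of 0.01 ± 0.06, and its CD8 difference of -0.22 ± 0.07 did not pass (SE; edgeR adjusted p = 0.94 and 0.0536). Ldha ran from 1347 to 1595 CPM (median 1475) against 1859 to 2342 CPM (median 2169) in CD4 cells and from 993 to 1510 CPM against 1995 to 2306 CPM in CD8 cells, and fell by 0.52 and 0.66 (edgeR adjusted p = 0.000169 and 0.000293). Pdk1, which inhibits pyruvate dehydrogenase, fell by 1.06 and 0.84. Of the 2 kinases that set fructose-2,6-bisphosphate, Pfkfb3 fell by 0.63 and 0.65. Pfkfb4 fell by 0.46 in CD4 cells and was at 0.04 ± 0.20 in CD8 cells (SE; edgeR adjusted p = 0.912), and the test of the difference between the cell types did not pass for it.

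Among the storage and secreted targets, Hilpda, a lipid droplet protein, fell by 0.77 in CD4 and 0.62 in CD8 cells. Vegfa, an angiogenic growth factor, fell by 0.41 in CD4 cells and was at -0.71 ± 0.36 in CD8 cells (SE; edgeR adjusted p = 0.183). The glycogen synthase gene Gys1 passed in neither, at -0.01 and -0.19. In CD8 cells Gys1 was at 8.99, 7.92, 7.98 and 19.6 CPM in wild-type, 8.63, 7.63, 17.5 and 9.02 CPM in heterozygous and 11.0, 27.6, 9.22 and 13.9 CPM in knockout libraries. The 3 highest values, from wild-type library 4, heterozygous library 3 and knockout library 2, do not follow the numbers. Adm was at 0.282 to 2.00 CPM in CD4 libraries, with a number difference of 0.05 ± 0.27 (SE; edgeR adjusted p = 0.914).

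Of the 8 targets with roles in matrix, chromatin and signalling, 6 fell and 1 rose in CD4 cells and 4 fell in CD8 cells. P4ha2 (chromosome 11, 54100095 to 54131665) was at 1.14 to 1.46 CPM (median 1.27) against 3.40 to 8.98 CPM (median 3.93) in CD4 cells and at 0.227 to 0.446 CPM against 0.638 to 1.86 CPM in CD8 cells, where libraries held as few as 3 counts. It fell by 1.92 and 1.59 on the log2 scale. P4ha1, the major collagen prolyl hydroxylase subunit, fell by 0.98 and 1.11, the ankyrin repeat gene Ankrd37 by 0.88 and 1.15, and the histone demethylase gene Kdm3a by 0.40 and 0.38. Ndrg1 and the MTOR inhibitor gene Ddit4 fell in CD4 cells by 0.77 and 0.32, and were at -0.96 ± 0.35 and -0.27 ± 0.18 in CD8 cells (SE; edgeR adjusted p = 0.0784 and 0.32). Mxi1, a MAX partner that opposes MYC, passed in neither cell type. Bhlhe40, a repressor needed for cytokine output of activated T cells, was the exception in CD4 cells: it was at 479.8, 565.1, 249.1 and 322 CPM in wild-type, 385.9, 414, 418.5 and 438.5 CPM in heterozygous, and 551, 417.5, 246.0 and 369 CPM in knockout libraries. Its rise of 0.48 ± 0.15 (SE; edgeR adjusted p = 0.0251) came with overlapping sets, since the heterozygous libraries did not share it.

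**Figure D3:**
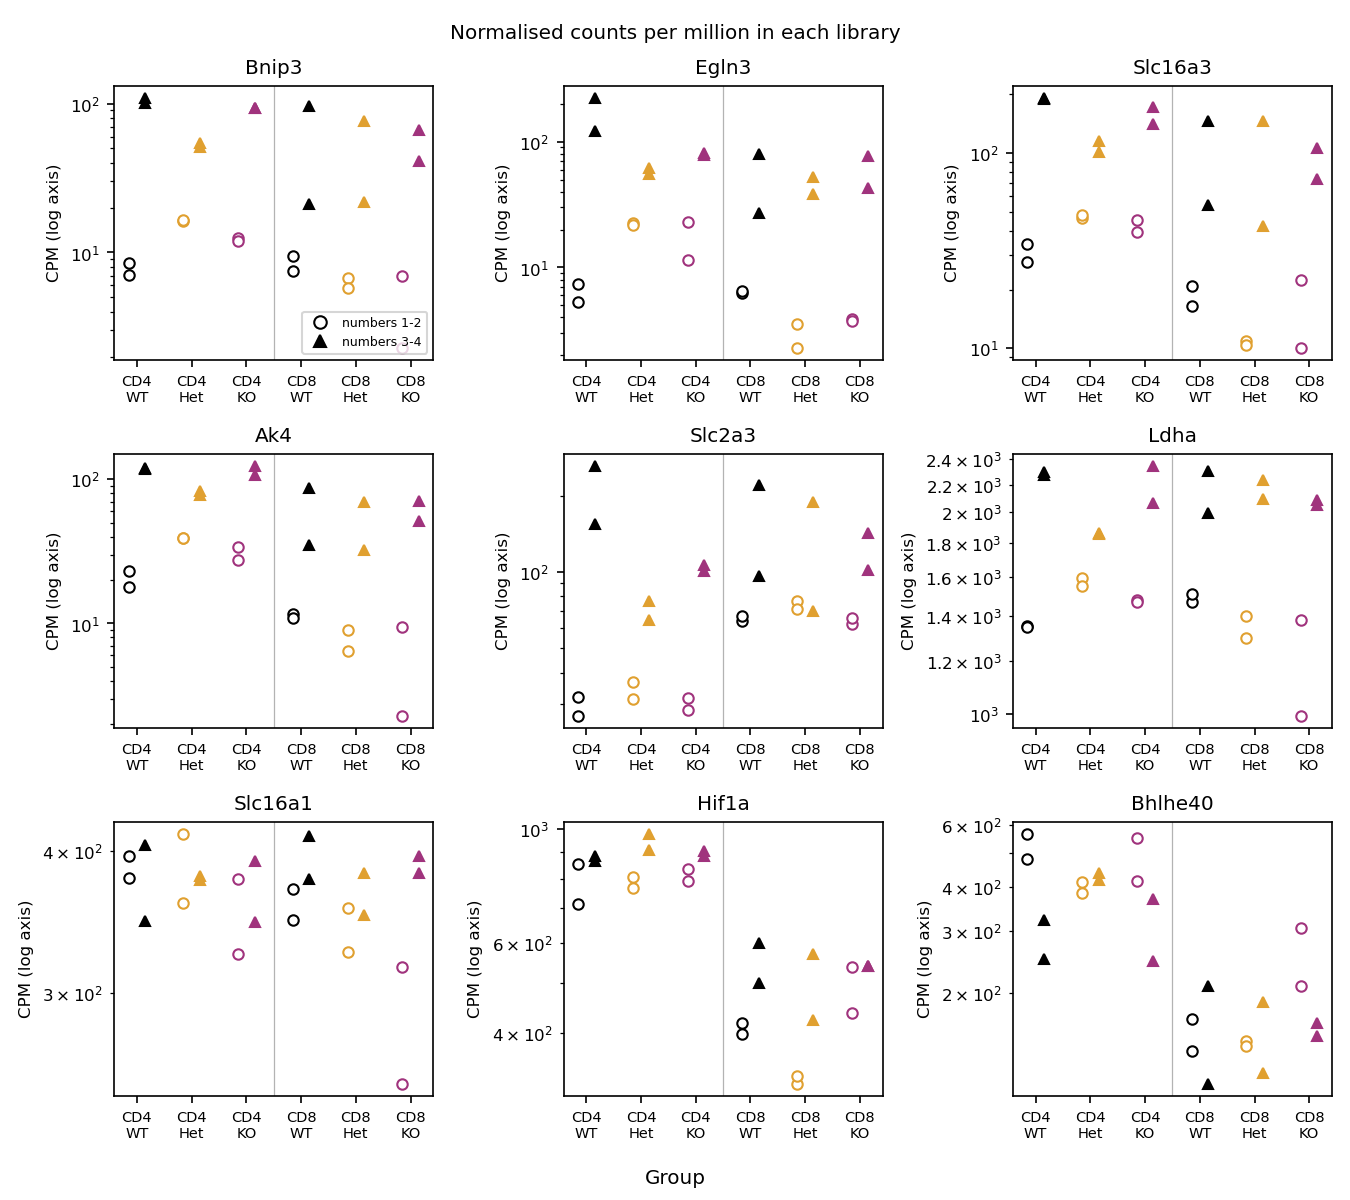
CPM (log axis) of 9 genes in each library, by group on the horizontal axis, with open circles for numbers 1-2 and filled triangles for numbers 3-4. Bnip3, Egln3, Slc16a3 and Ak4 have circles below triangles in every group, CD8 wild-type library 3 and heterozygous library 4 lie between, and Slc16a1 mixes the symbols between 250 and 414 CPM.

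Within each group of 4, the members' median difference between the 2 numbers 1-2 and the 2 numbers 3-4 was -0.91, -0.40 and -0.62 in CD4 wild-type, heterozygous and knockout cells and -0.59, -0.66 and -0.80 in CD8 cells, while the median over all genes lay between -0.018 and -0.0023. Fitted on wild-type libraries alone, the number comparison called 35 members in CD4 cells (25.1% of genes called) and 0 of 40 in CD8 cells (0.516%), where 31 members had an unadjusted p under 0.05 by edgeR and 11.6% of genes did. On knockout libraries alone it called 29 in CD4 cells (8.75%) and 19 in CD8 cells (3.56%). Seen over the members, single libraries stood apart in both cell types. In CD4 cells wild-type library 3 was the highest of the 12 for 19 members (median 0.50 from the gene means, log2 scale). CD4 wild-type library 2 was the lowest for 19 (median -0.42). In CD8 cells wild-type library 4 was the highest of the 12 for 32 members, with a median of 0.62 above the gene means. CD8 knockout library 2 was the lowest for 22 members, with a median of -0.52, and the highest for 3. Without wild-type library 4 the CD8 count stayed at 32, and without knockout library 2 it was 33. Other measures were set beside the numbers. Ribosomal protein genes took 2.54 to 2.79% of counts in CD4 libraries 1-2 and 2.27 to 2.55% in 3-4, and 2.40 to 2.60% against 2.16 to 2.40% in CD8 cells, so that the sets overlapped little in CD4 and not in CD8 cells. Summed B cell markers (8 of 8 detected) ranged from 11.3 to 24.8 against 8.97 to 49.96 CPM in CD4 cells and from 14.99 to 27.0 against 7.62 to 14.3 CPM in CD8 cells. Of 6 natural killer markers, summed levels were 1.69 to 3.70 against 0.214 to 1.58 CPM in CD4 and 9.07 to 14.5 against 4.96 to 11.6 CPM in CD8 cells, nearly all of it Klri2, with Ncr1 at most 0.282 CPM. Of 11 macrophage and dendritic cell markers they were 1.90 to 3.40 against 2.21 to 2.99 CPM and 3.69 to 7.36 against 2.93 to 4.79 CPM. The B cell sums did not overlap between the numbers in CD8 cells, and the natural killer sums did not in CD4 cells, while the CD4 B cell and macrophage sums of one set lay within the range of the other. Their part in the result was not tested. With sex in the model, 37 and 30 members were called, and the shares of all genes in these fits are not given here.

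The wider pathway, taken from lists of related genes, moved less uniformly between the numbers, where, over all genes, 17.9% were called lower and 16.9% higher in CD4 cells and 8.98% lower and 8.86% higher in CD8 cells. Of 17 tested further glycolysis genes, 2 rose and 6 fell in libraries 1-2 of CD4 cells and 1 rose and 5 fell in CD8 cells. The phosphoglucomutase gene Pgm1 fell by 1.13 and 1.07 and Eno3, the muscle enolase, rose by 0.77 and 0.60. Eno3 was at 92.3 to 129 CPM in CD4 libraries 1-2 and 54.1 to 67.0 CPM in 3-4. Of 10 pentose phosphate genes, 1 rose and 3 fell in CD4 and 1 rose and 5 fell in CD8 cells, with the transketolase Tkt at -0.21 and -0.24. Of 13 genes for pyruvate entry into mitochondria, 2 rose and 3 fell, then 0 rose and 2 fell; Mpc1, a subunit of the mitochondrial pyruvate carrier, rose by 0.64 in CD4 cells. Among 17 tested genes of the HIF machinery, 3 rose and 3 fell in CD4 cells, and of 15 tested in CD8 cells 1 rose and 2 fell. Cited2, which competes with HIF for its coactivators, fell by 0.43 and 0.56, and Hif3a, an inhibitory paralogue, fell by 2.37 in CD4 cells from levels of 0.592 to 2.35 CPM in libraries 3-4. Of further HIF targets, 22 of 37 fell and 3 rose in CD4 cells, with a median of -0.28, and 16 of 35 fell and 5 rose in CD8 cells, with a median of -0.32. The collagen lysyl hydroxylase Plod2 was at 9.49 to 13.6 against 29.6 to 38.6 CPM in CD4 cells and changed by -1.63 and -1.503 on the log2 scale, Fam162a fell by 1.02 and 0.76, the chemokine receptor gene Cxcr4 fell by 1.55 in CD4 cells, and Nrn1 fell by 1.83 in CD8 cells. Of 23 MYC, MTOR and glucose-sensing regulators, 7 rose and 4 fell in CD4 cells and 3 rose and 2 fell in CD8 cells; Sesn2, an inhibitor of MTORC1, rose by 1.10 in CD4 cells and Mxd4, a MYC antagonist, rose by 1.08 in CD8 cells. Called shares of the pyruvate entry and HIF machinery lists in both cell types were near those of all genes. So were those of the pentose phosphate list in CD4 cells and of these regulators in CD8 cells.

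Between CD8 and CD4 cells of the same genotype, Hif1a, Bhlhe40, Pfkfb4 and Adm were lower in CD8 cells in all 3 genotypes. In wild-type cells 7 members were called, all lower in CD8 cells, where 31.2% of 13288 genes were called, 16.6% lower and 14.7% higher. In heterozygous cells 6 were lower and 1, Egln2, was higher, where 34.9% of genes were called, 17.8% lower and 17.1% higher. In knockout cells 5 were lower, where 24.1% of genes were called, 13% lower and 11% higher. The members' called shares of 16.7%, 16.7% and 11.9% lay below those of all genes. The share called lower in wild-type cells, 16.7%, was near that of all genes. In the paired fit given further on, the shares called in either direction were near or a little above the background in wild-type and knockout cells. All of the members' calls in those genotypes were lower in CD8 cells. The share of all genes called lower in that fit is not given here. Gys1, P4ha2 and Vegfa made up the rest of the 8 members called in at least 1 genotype. Values fell below 0 in all 3 genotypes for 34 of 42 members, and the share of all genes for which they did is not given here. In the single comparisons 48.4%, 51.1% and 49.7% of all genes lay above 0. The members' medians were -0.28, -0.21 and -0.28 against -0.015, 0.010 and -0.0026 over all genes. These 3 comparisons use separate libraries.

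Hif1a (chromosome 12, 73901375 to 73947530) was at 854.6, 712.8, 886.9 and 866.4 CPM in CD4 wild-type libraries and at 419, 398.5, 501.2 and 600.5 CPM in CD8 wild-type libraries. Every CD8 library, at 319 to 600.5 CPM, lay below every CD4 library, at 712.8 to 975 CPM, which held for 2 members, Hif1a and Adm, where 5.4% of genes showed it. The log2 differences were -0.79 ± 0.15, -1.07 ± 0.15 and -0.73 ± 0.15 in wild-type, heterozygous and knockout cells (SE, 4 against 4; edgeR adjusted p = 0.000354, 9.59e-06 and 0.000871). Bhlhe40 stood at 404 ± 144 in CD4 and 156 ± 42.4 CPM in CD8 wild-type cells (SD, n = 4), with values of 168, 136.5, 110.1 and 208.5 CPM in the CD8 libraries. It was lower by -1.38 ± 0.26, -1.48 ± 0.26 and -0.94 ± 0.26 (SE; edgeR adjusted p = 0.000415, 0.000152 and 0.011). Its CD8 knockout library 2, at 305 CPM, reached into the CD4 range. Pfkfb4 was at 3.77, 5.43, 5.91 and 5.61 CPM in CD4 and 2.72, 2.77, 2.11 and 3.72 CPM in CD8 wild-type libraries, with log2 differences of -0.87, -0.83 and -0.98. Adm held 4 to 27 counts in each CD4 library and 0 to 4 in each CD8 library, at or near the floor of 3 counts, so no fold is given. Vegfa was at 62.3, 60.9, 82.9 and 84.6 CPM in CD4 and 27.1, 16.3, 25.7 and 56.2 CPM in CD8 wild-type libraries, with no overlap in that genotype, and differed by -1.21 ± 0.40 and -1.64 ± 0.41 in wild-type and heterozygous cells. In knockout cells its difference was -0.51 ± 0.39 (SE; edgeR adjusted p = 0.382), and CD8 library 2 was at 63.6 CPM. Gys1 differed by -1.23 and -0.88 in wild-type and heterozygous cells and P4ha2 by -2.52 and -2.24 in wild-type and knockout cells. Egln2 stood at 22.7 ± 1.20 CPM in CD8 and 17.1 ± 1.09 CPM in CD4 heterozygous cells (SD, n = 4).

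**Figure D4:**
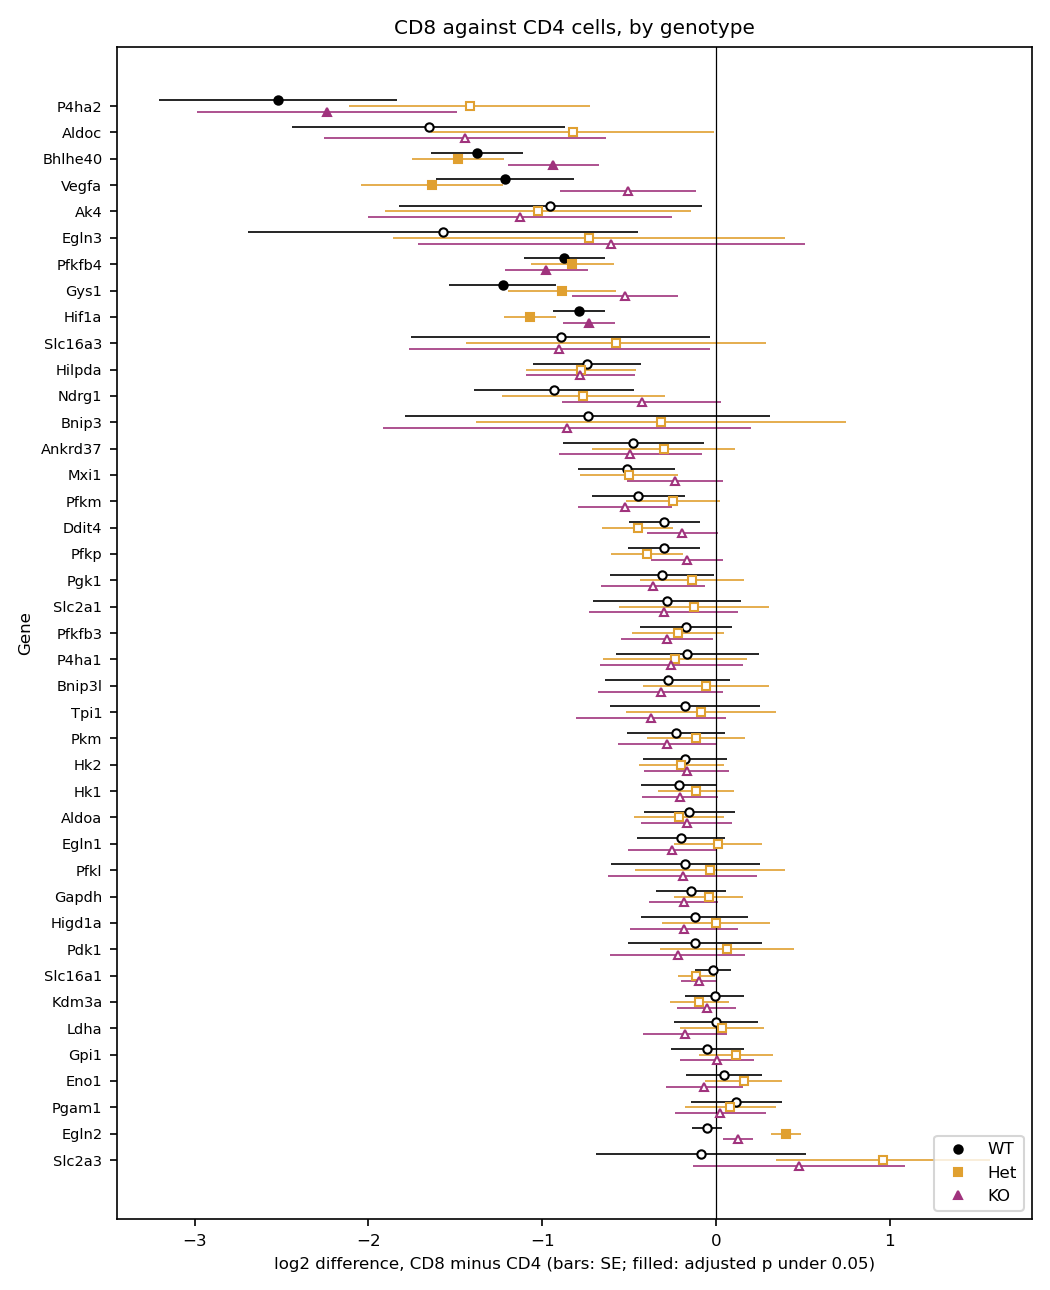
Log2 difference of CD8 minus CD4 cells for 41 genes (Adm left out) in wild-type, heterozygous and knockout cells (points, with SE bars), filled where the adjusted p was under 0.05. Most points lie between -1 and 0 with bars that cross or approach 0, and Hif1a, Bhlhe40 and Pfkfb4 are filled in all 3 genotypes.

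CD4 and CD8 libraries of the same genotype and number deviated together, and taking this pairing into the model as a replicate block raised the counts to 16, 16 and 14 members in wild-type, heterozygous and knockout cells, where 36.9%, 40.2% and 29.1% of genes were called. The members' shares were then 38.1%, 38.1% and 33.3%. Of these, 0, 2 and 0 members were higher in CD8 cells, and the share of all genes called in each direction in this fit is not given here. Slc16a3 (-0.92, -1.20 and -1.09), Ak4 (-0.997, -1.44 and -1.55) and Hilpda (-0.73, -0.77 and -0.80) were then lower in CD8 cells in all 3 genotypes, and Slc2a3 was higher by 0.92 in heterozygous cells. Without CD8 wild-type library 4 the wild-type count was 12, and without CD8 heterozygous library 3 the heterozygous count was 12. Ldha stayed at 0.0016, 0.03 and -0.18 with SEs of 0.24 in the fits without the block. Among related genes, the lactate dehydrogenase B gene Ldhb was lower in CD8 cells by 1.78, 1.79 and 2.26 on the log2 scale and the transporter gene Slc2a6 was higher by 1.92, 1.66 and 1.52. The von Hippel-Lindau gene Vhl, whose product takes hydroxylated HIF-1α to the proteasome, was lower in CD8 cells by 0.72, 0.58 and 0.76.

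No member was called between genotypes. In CD4 cells 0 of 42 members passed in knockout against wild-type, heterozygous against wild-type or knockout against heterozygous cells by edgeR's test, where 0.0708%, 0.0865% and 0.0157% of genes were called. At an unadjusted p under 0.05 the counts were 0, 3 and 1, where 2.44%, 8.68% and 3.66% of genes stood. In CD8 cells 0 of 41 passed in the same 3 comparisons, where 0.0634%, 0.0634% and 0.0159% of genes were called, with 0, 0 and 1 at an unadjusted p under 0.05, where 2.89%, 1.74% and 6.84% of genes stood. DESeq2 called 1 member in CD4 heterozygous against wild-type cells and 0 in the other comparisons, and limma called 0 in each. The comparisons share wild-type or heterozygous libraries and are not independent. The members' medians were -0.07, -0.19 and 0.10 in CD4 and -0.08, -0.09 and -0.01 in CD8 cells. Over all genes tested they were -0.006, -0.019 and 0.007 in CD4 and 0.003, 0.004 and -0.004 in CD8 cells. Of all genes, 47.9%, 44.7% and 52.6% lay above 0 in CD4 and 50.9%, 51.9% and 49.0% in CD8 cells. Of the members, 10, 5 and 36 of 42 did in CD4 and 11, 3 and 19 of 41 in CD8 cells. None passed the test that a knockout or heterozygous effect differed between CD8 and CD4 cells, where 0.00753% of genes did in each, with 0 and 2 members at an unadjusted p under 0.05 (1.72% and 4.05% of genes). DESeq2 and limma called 0 there too.

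Between knockout and wild-type cells the members' log2 differences ran from -0.88 (Egln3) to 0.42 (Adm) in CD4 cells. In CD8 cells they ran from -0.56 (P4ha2) to 0.50 (Vegfa). Ldha, chosen after its values were seen, lay near 0 in CD4 cells and does not stand for the other members. It was at 1351, 1347, 2300 and 2272 CPM in CD4 wild-type and 1480, 1470, 2342 and 2066 CPM in knockout libraries, a log2 difference of 0.01 ± 0.20 (SE; edgeR adjusted p = 1). The libraries fell apart by number and not by genotype. In CD8 cells it was at 1468, 1510, 1995 and 2306 CPM in wild-type and 1380, 993, 2049 and 2090 CPM in knockout libraries, a difference of -0.16 ± 0.25 (SE; edgeR adjusted p = 0.987). The median SE of a member was 0.247 in the CD4 and 0.286 in the CD8 knockout against wild-type comparison. With the number set in the model it was 0.116 and 0.177, and 0 members passed. The members of lowest p did not pass: Gys1 at -0.24 ± 0.11 and Egln2 at -0.14 ± 0.09 in CD4 knockout against wild-type cells, and Bhlhe40 at 0.41 ± 0.24 and Slc16a1 at -0.17 ± 0.12 in CD8 cells. Vegfa was at 0.50 ± 0.48 in CD8 knockout against wild-type cells, and its 4 knockout libraries, at 30.6, 63.6, 33.5 and 49.3 CPM, overlapped the wild-type ones. Adm was the member of lowest p in CD4 heterozygous cells, at 0.740, 0.282, 0.499 and 0.543 CPM in wild-type, 1.09, 1.74, 2.00 and 1.33 CPM in heterozygous and 1.01, 0.684, 0.437 and 0.673 CPM in knockout libraries. The wild-type and heterozygous libraries did not overlap, and the difference of 1.54 ± 0.32 did not pass (SE; edgeR adjusted p = 0.172).

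The CD4 heterozygous cells had a narrower separation between the numbers than the wild-type cells, and this comparison was added after the data were seen. The heterozygous minus wild-type difference in libraries 1-2, minus that in libraries 3-4, was positive and called for 24 of 42 members and negative and called for 0, where 1.75% of genes were called, 1.07% positive and 0.676% negative. The members' median was 0.52 against 0.004 over all genes. Bnip3 gave 2.05 ± 0.14 (SE; edgeR adjusted p = 3.46e-05), Egln3 3.35 ± 0.44 (0.0064), Slc2a3 1.77 ± 0.28 (0.0133), Ak4 1.51 ± 0.17 (0.00251), Slc16a3 1.43 ± 0.17 (0.00332) and Aldoc 1.25 ± 0.29 (0.0491). In libraries 1-2 alone, 10 members were higher in heterozygous than in wild-type cells, where 1.98% of genes were called, among them Egln3 by 1.79 ± 0.28 and Bnip3 by 1.06 ± 0.13. In libraries 3-4 alone, 10 were lower, where 0.435% of genes were called, among them Egln3 by -1.55 ± 0.23 and Bnip3 by -0.98 ± 0.08. Bnip3, Egln3, Ak4, Slc16a3 and Slc2a1 were in both sets. The 2 heterozygous libraries of each number set were of 1 sex, so that sex and number cannot be told apart within heterozygous cells. With sex in the model 5 members were called, and leaving out 1 library gave 5 (without heterozygous library 4) to 26 (without wild-type library 4). Without wild-type library 2 the count was 6, without heterozygous library 1 it was 7, without heterozygous library 3 it was 8, without wild-type library 1 it was 10, and without wild-type library 3 or heterozygous library 2 it was 11. The matching comparison for knockout cells called 0 members in CD4 cells by edgeR, where 0% of genes were called. DESeq2 called 4, and 21 members had an unadjusted p under 0.05, where 7% of genes did. The knockout differences had the same direction, with 39 of 42 members above 0, where 50.8% of genes were. Their median was 0.30 against 0.004 over all genes. The heterozygous and knockout comparisons share the wild-type libraries and are not independent. In CD8 cells edgeR and DESeq2 called 0 for heterozygous and 0 for knockout cells, with 1 and 1 members at an unadjusted p under 0.05 (2.49% and 7.9% of genes).

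**Figure D5:**
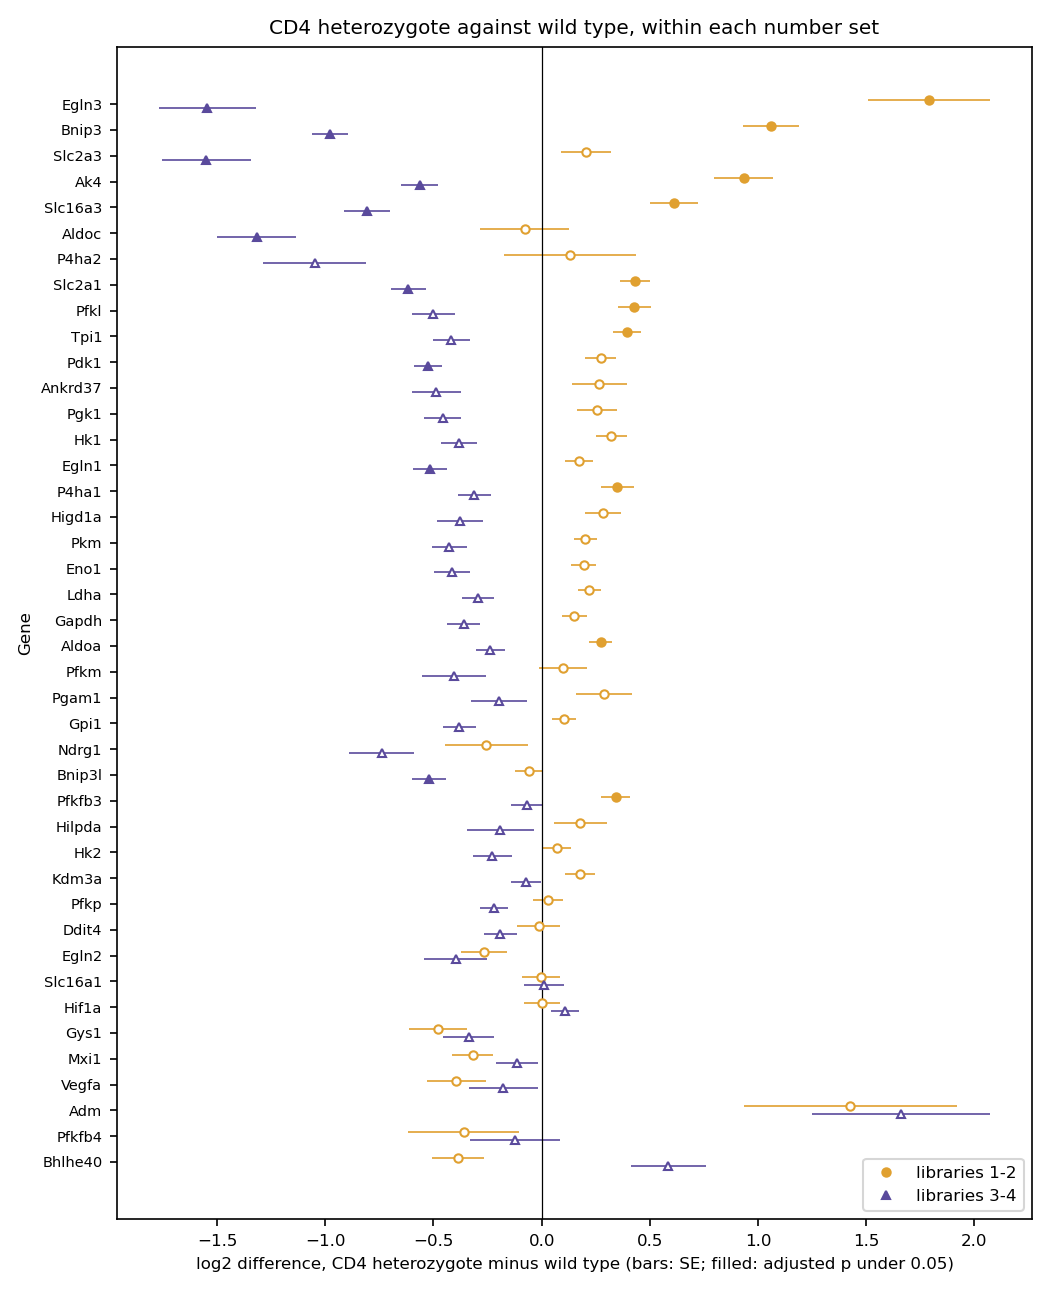
Log2 difference of CD4 heterozygous minus wild-type cells for each gene (points, with SE bars), fitted in libraries 1-2 alone (circles) and in libraries 3-4 alone (triangles), filled where the adjusted p was under 0.05. For Egln3, Bnip3, Ak4 and Slc16a3 the circles lie above 0 and the triangles below, with Egln3 at 1.79 and -1.55.

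In libraries 1-2 alone of CD8 cells, 6 members were higher in knockout than in heterozygous cells, where 1.93% of genes were called: Vegfa by 2.26 ± 0.37, Mxi1 by 1.05 ± 0.19, Bhlhe40 by 0.84 ± 0.17, Hif1a by 0.59 ± 0.10, Pfkp by 0.54 ± 0.08 and Ddit4 by 0.50 ± 0.09 (SE, 2 libraries against 2). Vegfa was at 8.48 and 11.1 CPM in the heterozygous and 30.6 and 63.6 CPM in the knockout libraries. Knockout library 2, the lowest CD8 library for 22 members, held the higher value of the knockout pair for all 6, with Bhlhe40 at 209 and 305 CPM, and library 1 alone also lay above both heterozygous libraries for each. Both heterozygous libraries and knockout library 2 were female and knockout library 1 was male, and the part of sex was not tested. In libraries 3-4 alone edgeR called 0, with 1 member at an unadjusted p under 0.05, where 2.7% of genes stood. Over all 4 numbers the Vegfa difference was 1.19 and did not pass.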

How the data were processed

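Poly(A) RNA of 24 libraries was prepared with the KAPA RNA HyperPrep kit, per the labels' protocols. Per the submitters' processing notes, Trimmomatic 0.35, STAR 2.7.1a, DESeq2 1.26.0 and GRCm38 were used. Neither the counter nor its annotation release or strand setting is stated there. The authors deposited whole-number counts per gene, unnormalised, and a second table of normalised signal, which equals the counts divided by 1 factor per library (0.840 to 1.558). Summary lines of the count table (31.6 to 35.0% of entries, including 17.5 to 18.5% multimapped) were left out. No sample column was unused.

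Members were matched by symbol; Aldoa stood on 2 rows, and the row with 0 to 7 counts was not used. Counts were filtered with filterByExpr (minimum count 10), scaled by TMM and tested with edgeR 4.0.16 quasi-likelihood fits (R 4.3.3). P-values were adjusted by the Benjamini-Hochberg method over all genes tested, 12719 in CD4, 12612 in CD8 and 13288 in all libraries, and called under 0.05. CPM are TMM-normalised over all 24 libraries. Log2 CPM used a prior count of 2. Exon lengths and gene coordinates came from GENCODE vM21 (40 of 42 members with the same ID version), promoter windows from RefSeq on GRCm38.p6. Alternatives were RLE scaling, no filter, DESeq2 1.42.0, limma 3.58.1 on log2 of the deposited signal plus 1, covariates, a replicate block, each number set alone and each library left out. The fits were tested on simulated data. Replicates differed beyond sampling noise (chi-square per degree of freedom at least 2.78 over 36 pairs).

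Same-numbered libraries deviated together between CD4 and CD8 cells of each genotype (correlations 0.147 to 0.451). The own number matched best for 3, 3 and 4 of 4 libraries in wild-type, heterozygous and knockout cells. Between CD4 genotypes the correlations ran from 0.132 to 0.580, and the own number matched best for 2 of 4 in each pair. Between CD8 genotypes they ran from -0.226 to 0.403, with 0, 3 and 1 of 4. Whether single numbers pair across genotypes, beyond the split of 1-2 from 3-4, was not tested. All members are named; per-library values or ranges were given for up to 5 called members each way (largest change first), the 2 of lowest p were named where fewer than 2 were called, and up to 3 called genes of each related list by lowest p. The further values (among them those of Ldha, Slc2a1, Slc2a3 and Tpi1) were chosen after they were seen. The members, lists and number split were chosen with earlier results of these data known.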

Additional observations from a re-analysis of the deposited data

Results flagged for a closer look

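Sample values were checked for 15 members in each group of 4 for a value far from the other 3, in 90 checks. Chance alone marks about 1 in 20 groups, and 8 were marked. In CD8 wild-type cells, library 4 stood above the others for Aldoc (12.7 CPM against 1.85 to 2.30), Bnip3 (96.3 CPM against 7.53 to 21.1) and Gys1 (19.6 CPM against 7.92 to 8.99). In CD8 heterozygous cells, library 3 stood above the others for Aldoc (11.3 CPM against 1.54 to 1.79), Gys1 (17.5 CPM against 7.63 to 9.02) and Slc2a3 (188 CPM against 70.2 to 76.5). Adm in CD8 heterozygous library 1 was at 0.0744 CPM, with the other 3 at 0, which is below the floor of 3 counts. Hif1a in CD8 knockout library 1 was the low one, at 438 CPM against 537.7 to 541.3 CPM.

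The difference between heterozygous and wild-type CD4 cells was not the same in libraries 1-2 and 3-4. It differed for 24 members by edgeR's test, where 1.75% of all genes did, among them Egln3 (3.35 on the log2 scale), Bnip3 (2.05), Slc2a3 (1.77), Ak4 (1.51), Slc16a3 (1.43) and Aldoc (1.25). With sex in the model the count was 5, and with 1 library left out it ran from 5 (without heterozygous library 4) to 26 (without wild-type library 4). The comparison was added after the data were seen, and sex and number cannot be told apart within the heterozygous libraries.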

How the results depend on the processing

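Of 320 recomputed counts of members, 285 stayed within 1.5 times the main count and 35 did not. Of 852 recomputed log2 differences of named genes, 795 kept their direction and side of the threshold, 48 lost the call, 8 gained it and 1 reversed: Bhlhe40 in CD8 knockout against wild-type cells, 0.41 in the main fit, was -0.021 in libraries 3-4 alone. The causes were not tested.

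The replicate block raised CD8 against CD4 to 16, 16 and 14 calls in wild-type, heterozygous and knockout cells. The number set as covariate raised them to 12, 16 and 14, where 39.7%, 42.6% and 31.3% of genes were called. Libraries 1-2 alone raised them to 14, 28 and 22, where 33.6%, 30.6% and 24.5% of genes were called. With the covariate, and for wild-type cells in libraries 1-2 alone, the members' shares called in either direction were below or near those of all genes. Leaving out 1 library gave 6 to 12, 6 to 12 and 4 to 5. The block changed no other count of calls. CD4 heterozygous against wild-type gave 1 call with DESeq2 and 7 with number set and sex as covariates (3.86% of genes called). It gave 10 in libraries 1-2 alone (1.98%) and 10 in libraries 3-4 alone (0.435%). CD4 knockout against heterozygous gave 1 in libraries 3-4 alone (0.101% of genes called), and CD8 knockout against heterozygous 6 in libraries 1-2 alone (1.93%). The CD8 number comparison gave 0 in wild-type and 19 in knockout libraries alone. Leaving out 1 library gave 36 to 37 calls for the CD4 and 30 to 33 for the CD8 number comparison, 0 to 1 for their difference (1 without CD8 wild-type library 4), and 0 for every genotype comparison. Without the filter on low counts the difference gave 9.

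Of the comparisons added after seeing the data, the CD4 heterozygous one gave 5 with sex as covariate and 5 to 26 with 1 library left out. The CD4 knockout one gave 8 without the filter, 4 with DESeq2 and 0 to 2 with 1 library left out (2 without wild-type library 4), and the CD8 knockout one gave 10 without the filter and 0 to 4 with 1 library left out (4 without knockout library 1). A setting that leaves 1 library in a group assumes that it varies like the others. The shares of all genes called with DESeq2, with sex as covariate, without the filter or with 1 library left out are not given here. Depth limits Adm and, in CD8 cells, P4ha2.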
